A study of Mus musculus with 12 samples.

Results

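The genes followed here, in the skull of newborn mice, are 10 markers of fat cells: Adipoq, Fabp4, Plin1, Plin4, Cfd, Lpl, Pparg, Cidec, Car3 and Ucp1. They were chosen by name as a set of adipocyte genes, by a rule that uses no measured value but with earlier results of these data known, and all 10 were found by symbol among the 23358 rows of the deposited gene table. The tissue was frontal bone with the adjoining nasal bone, coronal suture and frontonasal suture, collected on postnatal day 3. Wild type mice were compared with mice labelled FGFR2C342Y/+, which carry 1 mutant copy of a fibroblast growth factor receptor gene and model Crouzon syndrome, a disorder in which skull sutures fuse early. Each genotype was on a C57BL/6 or a BALB/c background, which gave 4 groups of 3 samples: C57BL/6 wild type (replicates 1 to 3), C57BL/6 mutant (4 to 6), BALB/c wild type (13 to 15) and BALB/c mutant (16 to 18). All samples shared the age, the tissue, a digestion in collagenase and trypsin and an mRNA library kit. The labels do not say whether the 3 samples of a group came from separate animals, so p-values measure only the spread between these samples. Sex-linked transcripts differed between libraries within 3 of the groups, which therefore cannot be repeats from 1 animal, while for C57BL/6 wild type the spread may be technical. The run identifiers in the sample descriptions name a different flow cell for each strain, so strain and flow cell cannot be told apart. Gene counts cannot show a point mutation, so the genotype labels were not checked in this way.

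Fat cells store triglyceride in a single large droplet (white fat) or in many small ones that are burned for heat (brown fat). PPARG, a nuclear receptor that pairs with RXR, switches on the programme together with the C/EBP factors. Lipoprotein lipase, the product of Lpl, frees fatty acids from circulating lipoproteins, and FABP4 carries them inside the cell. Perilipin 1 and CIDEC coat and enlarge the droplet, perilipin 4 coats nascent droplets, and the hormone adiponectin (Adipoq) and the protease adipsin (Cfd) are secreted. UCP1 uncouples respiration in brown fat. Several of these genes are also known outside fat: Fabp4 in capillary endothelium and macrophages, Lpl in muscle and macrophages, Car3 (carbonic anhydrase 3) and Plin4 in skeletal muscle, and Pparg in macrophages and the osteoclast lineage.

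Gene counts summed to 27.2 to 46.5 M per library. Every count was even, which fits counting of both mates, so 1 read pair is 2 counts and the floor used here is 3 read pairs, 6 counts or 0.129 to 0.225 CPM (counts scaled to the library size), depending on the library. Floors and intervals cover counting error only. Library makeup differed beyond the design. The summed level of 15 skeletal muscle genes was 489.3 CPM in BALB/c mutant replicate 16 and 112.7 CPM in C57BL/6 wild type replicate 2, and 9.80 to 46.97 CPM in the other 10 libraries. The sum of 10 nasal epithelium genes was 395.6 to 776.9 CPM in C57BL/6 wild type and 190.8 CPM in C57BL/6 mutant replicate 4, and at most 8.63 CPM elsewhere. The labels give no sex. Y-linked transcripts outnumbered Xist in 3 of 3 C57BL/6 wild type libraries and in 1 of 3 libraries of each other group, and the part of sex in the differences below was not tested. CPM values are scaled by trimmed mean of M values (TMM), which assumes that most genes do not differ. Scaling to total counts instead moved the median log2 difference of all genes by -0.20 for the genotype in C57BL/6, 0.03 for the genotype in BALB/c, -0.115 for the strain in wild types, 0.12 for the strain in mutants and 0.23 for the interaction.

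The members fell into 2 classes by level. Per length, as the authors' RPKM (reads scaled to the coding length and to the library total), Fabp4 was highest with a median of 86.3 over the 12 libraries (59.0 to 132.2). Car3 followed at 50.6 RPKM (32.6 to 89.5), a range that overlapped that of Fabp4. Lpl was at 13.8 RPKM (9.33 to 20.7) and Pparg at 3.22 RPKM (2.55 to 3.82), and the Lpl range touched no other member's, while that of Pparg was reached by the highest Adipoq and Plin1 libraries. These 4 genes had levels above those of 60.4% (Pparg) to 98.2% (Fabp4) of all genes in the table. The next 3 overlapped one another: Adipoq at 0.350 RPKM (0.0286 to 4.99), Plin4 at 0.279 (0.0446 to 1.16) and Plin1 at 0.134 (0.0240 to 2.87). Cfd was at 0.0665 RPKM (0 to 0.413), Cidec at 0.0127 (0 to 1.25) and Ucp1 at 0 (0 to 0.125). The abundant members varied 1.5-fold (Pparg) to 2.74-fold (Car3) between the lowest and highest library, whereas Adipoq ran from 1 to 113 read pairs and Plin1 from 1 to 101. Members of the same families fell into both classes. Plin2 had a median of 17.4 RPKM, Plin3 18.03 and Ucp2 37.4, whereas Plin5 had 0.187, Cideb 0.178, Car4 0.0560 and Ucp3 0.0323, in the range of the low class. Fabp5, at 24.9 RPKM, and Fabp3, at 13.4, were below Fabp4. Car2, at 43.7 RPKM (17.6 to 69.1), overlapped Car3. Ppard, at 8.61 RPKM, was above Pparg, and Ppara, at 0.212, was below it.

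The genes most restricted to fat cells were at or under the floor in part of the libraries. Cidec had over 3 read pairs in 3 of 12 libraries and 0 in 6. Cfd did so in 1 of 12 and Ucp1 in 1 of 12, and Adipoq and Plin1 in 8 of 12 each. The hormones leptin (Lep, at 0 in 9 of 12 libraries) and resistin (Retn, at 0 in 7) reached at most 8 counts. A filter on low counts, which keeps 16190 genes, kept 8 of the 10 members and dropped Cfd and Ucp1. In RNA from whole tissue, fewer cells of a type and less RNA per cell cannot be told apart.

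**Figure D1:**
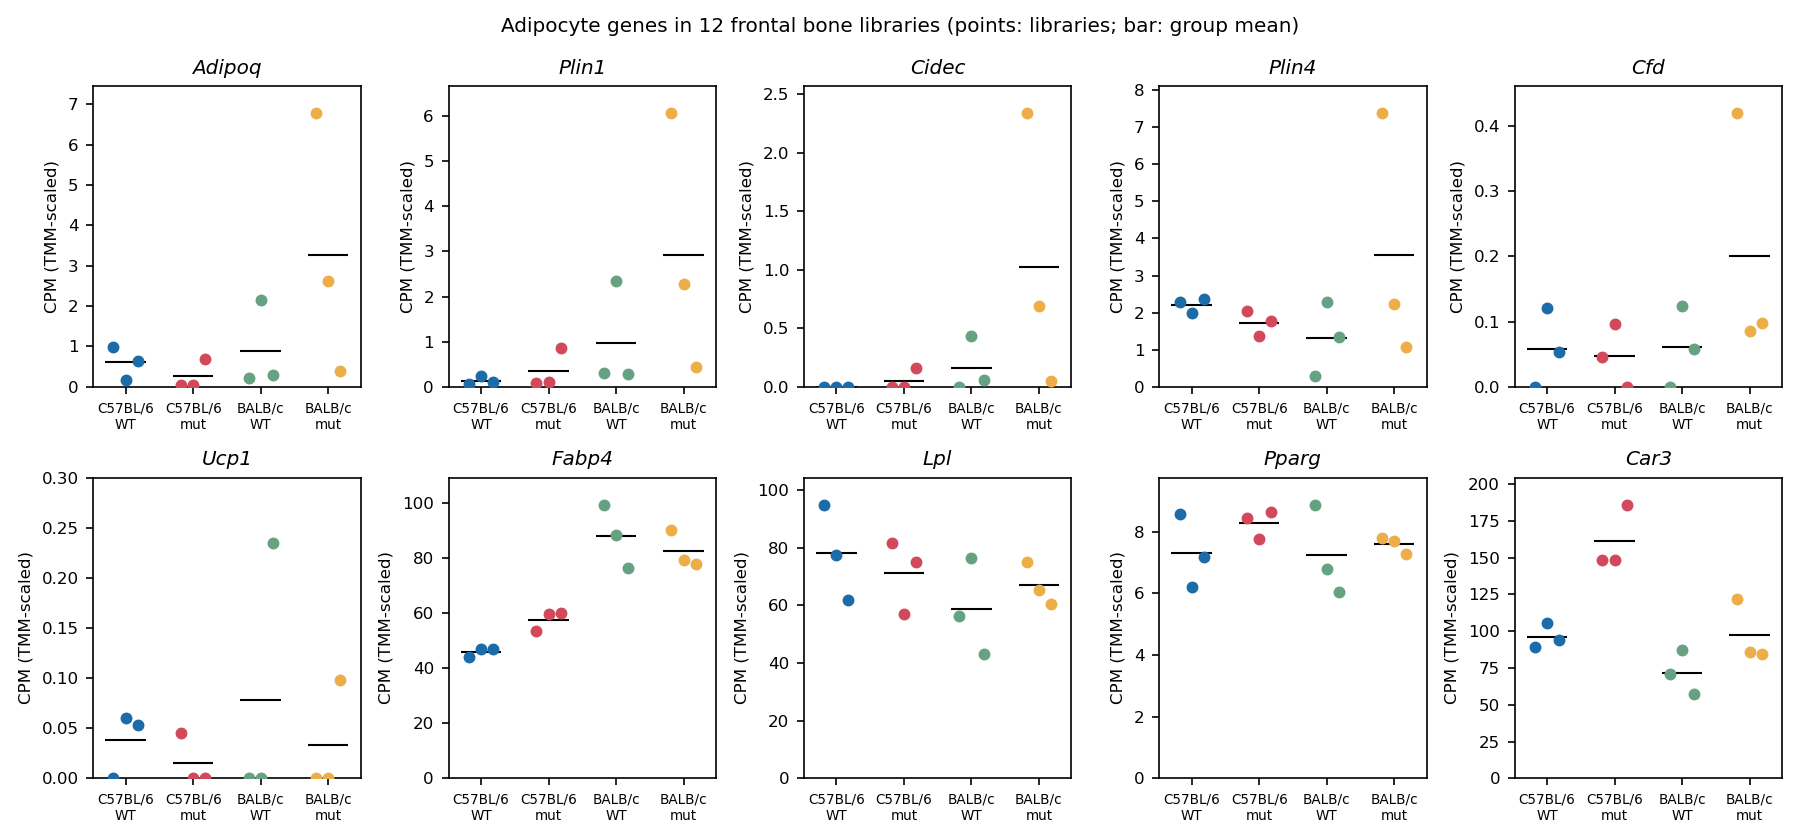
TMM-scaled CPM (vertical axes, linear from 0) of the 10 genes in each of the 12 libraries; points are libraries, in replicate order within a group, and bars are group means of 3. Adipoq, Plin1 and Cidec are highest in BALB/c mutant replicate 16, at 6.78, 6.06 and 2.34 CPM, while Fabp4 separates the strains in all libraries and Car3 is highest in the C57BL/6 mutant.

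Of the fat-restricted genes, Adipoq, Plin1 and Cidec formed the 3 pairs of tested members most alike across the 12 libraries by Pearson's r, given below. The bases just before their start sites are shown here for that reason. The ranking depends on the measure: by Spearman's rho, Fabp4 with Plin1 (0.804) lay above Adipoq with Cidec (0.769) and with Plin1 (0.664). They come from RefSeq windows on GRCm38.p6, where 7 of the 10 members had a window (none for Fabp4, Lpl and Car3). Cidec has 2 windows, and the one whose start lies nearest the start in the deposited table is given. The windows of the other members are not printed. Each runs 250 bases, 5′ to 3′ towards the start site, with matches in capitals to the PPARG-RXR direct repeat (AGGTCA repeated after 1 base), its single site (AGGTCA, which every direct repeat also holds), the C/EBP motif (TTGCNNAA), the E-box (CANNTG) and TATAAA, on either strand.
Adipoq, chr16:23146286-23146535, plus strand: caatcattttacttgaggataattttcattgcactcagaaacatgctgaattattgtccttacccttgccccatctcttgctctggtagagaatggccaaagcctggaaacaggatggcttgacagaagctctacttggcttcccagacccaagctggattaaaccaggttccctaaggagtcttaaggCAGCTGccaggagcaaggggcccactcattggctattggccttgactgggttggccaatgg
Plin1, chr7:79732777-79733026, minus strand: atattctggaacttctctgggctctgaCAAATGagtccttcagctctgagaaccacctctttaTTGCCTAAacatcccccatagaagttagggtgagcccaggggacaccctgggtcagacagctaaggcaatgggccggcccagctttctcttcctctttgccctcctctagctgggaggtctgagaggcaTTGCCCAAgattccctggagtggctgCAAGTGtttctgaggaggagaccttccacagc
Cidec, chr6:113435761-113436010, minus strand: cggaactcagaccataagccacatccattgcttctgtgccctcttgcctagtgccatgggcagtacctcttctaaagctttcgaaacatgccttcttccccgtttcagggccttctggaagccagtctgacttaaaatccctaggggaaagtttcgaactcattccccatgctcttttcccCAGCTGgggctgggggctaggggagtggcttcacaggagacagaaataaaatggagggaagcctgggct
The Adipoq and Cidec windows each held 1 match, an E-box of the same letters, CAGCTG, which began 61 bases before the Adipoq start and 69 bases before the Cidec start. The Plin1 window held a pair of C/EBP matches, TTGCCTAA at 187 and TTGCCCAA at 58 bases before the start, and E-boxes at 223 and 32. Of 32851 such windows in the table, 66.2% held an E-box, 9.56% a C/EBP match, 14% the single site, 12.4% TATAAA and 0.0335% the full direct repeat. The Cidec window not printed held a C/EBP match, TTGCTCAA. The direct repeat letters were in no window of a member. A match is a description of letters, not evidence of a bound site.

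Adipoq, which lies at chr16:23146536-23157968 (mm10), was scattered within groups and reached its highest levels in the BALB/c mutant. Its levels were 0.987, 0.181 and 0.644 CPM in C57BL/6 wild type, 0.0452, 0.0485 and 0.700 in C57BL/6 mutant, 0.225, 2.16 and 0.293 in BALB/c wild type and 6.78, 2.63 and 0.394 in BALB/c mutant libraries. The groups overlapped in every comparison, because at least 1 library of each group was under 1 CPM. Plin1 (chr7:79721164-79732776) stood at 0.0520, 0.241 and 0.107 CPM in C57BL/6 wild type, 0.0904, 0.0970 and 0.862 in C57BL/6 mutant, 0.300, 2.35 and 0.293 in BALB/c wild type and 6.06, 2.28 and 0.443 in BALB/c mutant libraries. The same library was highest for Adipoq and for Plin1 in 3 of 4 groups. Cidec (chr6:113424636-113435755) had 0 counts in all 3 C57BL/6 wild type libraries, 0, 0 and 6 counts in C57BL/6 mutant, 0, 14 and 2 in BALB/c wild type and 78, 32 and 2 in BALB/c mutant libraries. Its highest library was that of Plin1 in 3 of 4 groups, and in C57BL/6 wild type it had no count to rank.

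Among mutants, Adipoq was 12.5-fold higher in BALB/c than in C57BL/6 (log2 3.65, SE 1.25, adjusted p = 0.0380, edgeR quasi-likelihood test, 3 against 3), and Plin1 was 8.44-fold higher (log2 3.08, SE 1.12, adjusted p = 0.0491). In this comparison 4 of the 8 tested members were called at an adjusted p under 0.05, beside 36.9% of all 16190 genes. Both calls rest on few libraries. C57BL/6 mutant replicates 4 and 5 held 1 read pair of Adipoq and 2 of Plin1 each, under the floor, and without replicate 6 the estimates were log2 6.02 and 4.92. Without BALB/c mutant replicate 16, Adipoq had log2 2.55 with an adjusted p of 0.155, and Plin1 log2 1.99 with an adjusted p of 0.214. For Adipoq the call was also lost without C57BL/6 wild type replicate 3, C57BL/6 mutant replicates 4 or 5, or BALB/c mutant replicate 17, with adjusted p of 0.0156 to 0.155 over all 12 omissions. The Plin1 call was kept in 3 of 12 omissions, those of replicates 6 (C57BL/6 mutant), 14 (BALB/c wild type) and 18 (BALB/c mutant). Replicate 16 also held the most muscle RNA (489.3 CPM over 15 genes, of which 1 was at 0), and replicate 17 the most among the other BALB/c libraries (46.97 CPM). In C57BL/6 wild type replicate 2, at 112.7 CPM of muscle genes, Plin1 was at 0.241 CPM and Adipoq at 0.181 CPM. The part of muscle or of tissue attached to it was not tested.

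In the other comparisons no fat-restricted member was called. Between wild types, the Plin1 levels of BALB/c and C57BL/6 did not overlap after scaling (0.293 to 2.35 against 0.0520 to 0.241 CPM). In read pairs the groups met at 4, with 4, 38 and 5 pairs in BALB/c against 1, 4 and 2 in C57BL/6. Apart from BALB/c wild type replicate 14, these are near the floor of 3 pairs. The Plin1 estimate was log2 2.89 (SE 1.25) with an adjusted p of 0.0759 (1.16 and 0.490 without replicate 14). Adipoq had log2 0.56 (SE 1.16, adjusted p = 0.714), and -1.22 (adjusted p = 0.481) without replicate 14. The mutation on BALB/c gave log2 1.85 (SE 1.13, adjusted p = 0.584) for Adipoq, 1.56 (SE 1.04, adjusted p = 0.620) for Plin1 and 2.57 (SE 1.39, adjusted p = 0.532) for Cidec. Leaving out 1 library moved the BALB/c estimate between 0.755 and 3.63 for Adipoq and between 0.475 and 3.29 for Plin1, with no call. For Cidec it moved between 1.145 and 4.847, also with no call. On C57BL/6 the mutation gave -1.24 (SE 1.25, adjusted p = 0.498, -3.61 to -0.67 leaving out 1 library) for Adipoq. For Plin1 it gave 1.37 (SE 1.30, adjusted p = 0.472, -0.47 to 2.07 leaving out 1 library). No fold is given for Cidec, which was at or under the floor in all 6 libraries. These standard errors of more than 1 log2 unit set what could be detected for genes of this level.

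The balance between Adipoq and Plin1 was not the same in every library. The share of Adipoq among the read pairs of both genes was 52.8% in BALB/c mutant replicate 16 (95% exact binomial interval 45.9 to 59.6%, 214 pairs). It was 53.5% in replicate 17 (43.9 to 62.9%, 114 pairs), 47.9% in BALB/c wild type replicate 14 (36.1 to 60.0%, 73 pairs) and 44.8% in C57BL/6 mutant replicate 6 (26.4 to 64.3%, 29 pairs). These 4 libraries, which held the most Plin1, had intervals that all overlapped. C57BL/6 wild type replicate 1 had 19 Adipoq pairs and 1 Plin1 pair, a share of 95% (75.1 to 99.9%). Replicate 3 of that group had 12 and 2 pairs, 85.7% (57.2 to 98.2%). The interval of replicate 1 lay above those of all 4, while that of replicate 3 overlapped them. BALB/c mutant replicate 18 had 8 and 9 pairs, 47.1% (23.0 to 72.2%), and the other 5 libraries held 3 to 10 pairs of both genes, with intervals that also overlapped those of the 4. Cidec made up 27.9% of Cidec and Plin1 pairs in replicate 16 (20.6 to 36.1%), 23.2% in replicate 17 (13.9 to 34.9%), 15.6% in BALB/c wild type replicate 14 (6.49 to 29.5%) and 15.8% in C57BL/6 mutant replicate 6 (3.38 to 39.6%), with overlapping intervals.

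**Figure D2:**
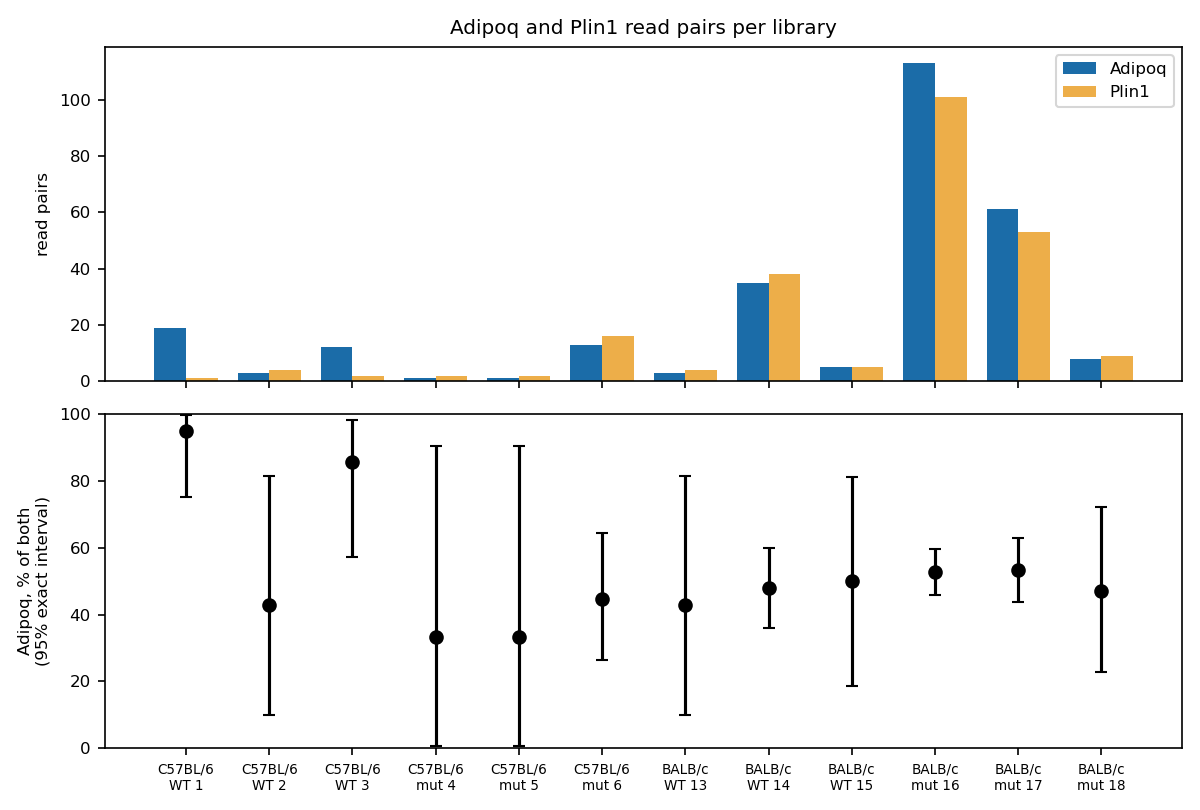
Read pairs of Adipoq and Plin1 in each library (top, bars from 0) and the share of Adipoq among both (bottom, percent, points with 95% exact binomial intervals). The 4 libraries with the most Plin1 have shares of 44.8% to 53.5%, and C57BL/6 wild type replicates 1 and 3 have 95% and 85.7% from 20 and 14 pairs.

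Plin4 (chr17:56100591-56109802) was present in every library. In C57BL/6 it did not follow Plin1, of which all libraries but mutant replicate 6 held only 1 to 4 read pairs. The Plin4 levels were 2.29, 1.99 and 2.36 CPM in C57BL/6 wild type, 2.03, 1.36 and 1.78 in C57BL/6 mutant, 0.300, 2.29 and 1.35 in BALB/c wild type and 7.37, 2.24 and 1.08 in BALB/c mutant libraries. The C57BL/6 levels were narrow and the BALB/c levels were scattered around them. Plin4 made up 89.2% to 97.8% of Plin4 and Plin1 read pairs in C57BL/6 wild type and in mutant replicates 4 and 5, and 49.3% to 54.9% in the BALB/c libraries richest in Plin1 (replicates 14, 16 and 17). The share lay between these in C57BL/6 mutant replicate 6 (67.3%) and in BALB/c replicates 15 (82.1%) and 18 (71.0%), and replicate 13 held 8 pairs of both genes. No comparison passed the test. The estimate was log2 1.42 for the mutation on BALB/c (SE 0.67, adjusted p = 0.445; 0.338 to 2.08 leaving out 1 library), 1.04 for the strain in mutants (SE 0.66, adjusted p = 0.235; -0.04 without replicate 16) and 1.78 for the interaction (SE 0.94, adjusted p = 0.227). Hdgfl2 overlaps Plin4 on the opposite strand, and without a stated strand setting their reads cannot be told apart there.

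Cfd (chr10:79890853-79892656) and Ucp1 (chr8:83290348-83298456) were not tested. Cfd had 14 counts in BALB/c mutant replicate 16 and 0 to 4 in each of the other 11 libraries. Ucp1 had 8 counts in BALB/c wild type replicate 15, 0 in 7 libraries and 2 or 4 in the other 4. Adipsin RNA was thus over the floor only in the library that also led in Adipoq, Plin1 and Cidec, and Ucp1 was over it only in a different one. No group comparison was made for either gene.

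Fabp4 (chr3:10204343-10208576) separated the strains in all 12 libraries. Its levels were 43.85, 46.97 and 47.01 CPM in C57BL/6 wild type, 53.3, 59.4 and 59.9 in C57BL/6 mutant, 99.2, 88.2 and 76.1 in BALB/c wild type and 90.1, 79.1 and 77.7 in BALB/c mutant libraries. Every BALB/c library lay above every C57BL/6 library, and every C57BL/6 mutant library above every C57BL/6 wild type library. Between wild types Fabp4 was 1.91-fold higher in BALB/c (log2 0.93, SE 0.09, adjusted p = 2.03e-05), and between mutants 1.43-fold higher (log2 0.52, SE 0.09, adjusted p = 0.00104). Both calls were kept in all 12 fits that leave out 1 library and under all 8 alternative settings. Fabp4 was the 1 called member of 8 between wild types, beside 48.5% of all genes called there. The mutation on C57BL/6 raised Fabp4 by log2 0.32 (SE 0.09, 1.25-fold, adjusted p = 0.0261), which was 1 of 2 called members of 8 beside 23.9% of all genes. This call was lost when libraries were scaled to total counts (log2 0.13, adjusted p = 0.288). It was also lost without C57BL/6 wild type replicate 1 (adjusted p = 0.0722), or without C57BL/6 mutant replicate 5 (0.0819) or 6 (0.0966). On BALB/c the estimate was -0.09 (SE 0.09, adjusted p = 0.763), where 0 of 8 members and 0.136% of all genes were called and 1 member had an unadjusted p under 0.05. With DESeq2 the count of members on BALB/c was also 0. The difference between the mutation's effects on the 2 strains was log2 -0.42 for Fabp4 (SE 0.13, adjusted p = 0.0612), with 0 of 8 members called beside 10% of all genes, 1 member at an unadjusted p under 0.05, and 1 called by DESeq2 (Fabp4, adjusted p = 0.0239).

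The summed levels of endothelial and of macrophage markers were, like Fabp4, higher in every C57BL/6 mutant than in every C57BL/6 wild type library. The sum of 10 endothelial markers was 548.3 to 640.0 CPM in C57BL/6 wild type, 695.5 to 869.4 in C57BL/6 mutant, 696.6 to 792.3 in BALB/c wild type and 676.7 to 761.8 in BALB/c mutant libraries, with no marker at 0. The highest sum, in C57BL/6 mutant replicate 6, included 184.9 CPM of Egfl7, against 64.2 and 60.1 CPM in replicates 4 and 5. Of the 10, 4 rose and 0 fell with the mutation on C57BL/6 and 4 were higher in BALB/c between wild types, whereas between mutants 1 was higher and 1 lower, beside 23.9%, 48.5% and 36.9% of all genes called in either direction. The sum of 10 macrophage markers was 339.6 to 415.8, 553.5 to 634.4, 400.6 to 456.6 and 406.4 to 427.3 CPM in the same order of groups, and 2 of these 10 passed the test for the mutation on C57BL/6, both higher. The endothelial sums of the C57BL/6 mutant overlapped those of the BALB/c groups, while its Fabp4 was lower in every library. The part of either cell type in the Fabp4 differences was not tested.

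**Figure D3:**
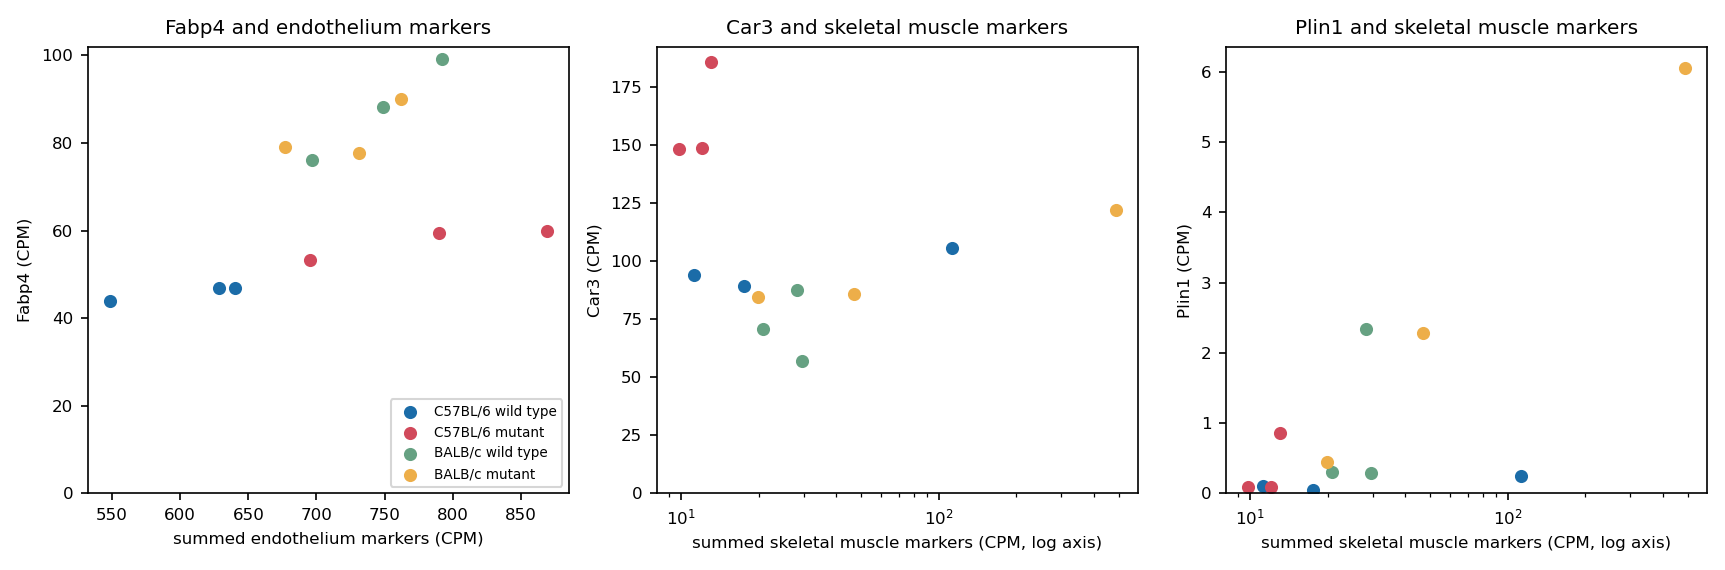
Fabp4 against the sum of 10 endothelial markers (left), and Car3 (middle) and Plin1 (right) against the sum of 15 skeletal muscle markers (log horizontal axis), all in CPM, 1 point per library, coloured by group. At endothelial sums of 695.5 to 869.4 CPM the C57BL/6 mutant libraries lie at 53.3 to 59.9 CPM of Fabp4, under the BALB/c libraries at 76.1 to 99.2. The sum of 869.4 CPM, in replicate 6, includes 184.9 CPM of Egfl7.

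Car3 (chr3:14863538-14872373) rose with the mutation on C57BL/6 and was lower in BALB/c. Its levels were 89.2, 105.7 and 94.1 CPM in C57BL/6 wild type, 148.6, 148.2 and 185.8 in C57BL/6 mutant, 70.6, 87.4 and 56.98 in BALB/c wild type and 121.9, 85.8 and 84.4 in BALB/c mutant libraries. The C57BL/6 mutant libraries lay above all 9 others. On C57BL/6 the mutation raised Car3 by 1.67-fold (log2 0.74, SE 0.17, adjusted p = 0.0102), and among mutants BALB/c was lower by log2 -0.72 (SE 0.17, adjusted p = 0.00558). Both calls held in all 12 omissions of a library and under all 8 alternatives. On BALB/c the mutation gave log2 0.44 (SE 0.17) with an adjusted p of 0.335, and the groups overlapped (84.4 against 87.4 CPM). The 2 effects of the mutation differed by -0.30 (SE 0.24, adjusted p = 0.433), so a difference between strains was not shown. Between wild types Car3 was lower in BALB/c by log2 -0.43 (SE 0.17, adjusted p = 0.0547) without overlap, and 5 of 8 alternatives and 3 of 12 omissions put it past the threshold, with adjusted p of 0.0179 to 0.209. The sum of the muscle markers was 9.80 to 13.1 CPM in the C57BL/6 mutant, where Car3 was highest, and 11.3 to 112.7 CPM in C57BL/6 wild type. Within groups, the library with the most muscle RNA was also highest in Car3 in 3 of 4 groups, the exception being BALB/c wild type. The library highest in Plin1 was also highest in Car3 in 4 of 4 groups, although in C57BL/6 wild type Plin1 had only 1 to 4 read pairs to rank. The part of muscle in the Car3 differences was not tested.

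Lpl (chr8:68880555-68906932) and Pparg (chr6:115361221-115490401) passed no test in any comparison. Lpl stood at 94.9, 77.4 and 61.9 CPM in C57BL/6 wild type, 81.6, 57.04 and 75.1 in C57BL/6 mutant, 56.4, 76.3 and 43.2 in BALB/c wild type and 75.2, 65.5 and 60.7 in BALB/c mutant libraries, with all groups overlapping. Its largest estimate was -0.41 between wild types (SE 0.20, adjusted p = 0.115), which passed only without BALB/c wild type replicate 14 (log2 -0.65, adjusted p = 0.0228). Pparg stood at 8.57, 6.20 and 7.18 CPM in C57BL/6 wild type, 8.45, 7.76 and 8.62 in C57BL/6 mutant, 8.86, 6.79 and 6.03 in BALB/c wild type and 7.79, 7.71 and 7.28 in BALB/c mutant libraries. Its estimates ran from -0.12 to 0.18 over the 4 comparisons of 2 groups, each with an SE of 0.15. In the C57BL/6 mutant 8 of 8 osteoclast markers rose (beside 23.9% of all genes called, summing to 7345 to 8195 against 3492 to 4261 CPM in C57BL/6 wild type), while Pparg passed no test. The antisense transcript Gm44079 overlaps Pparg, and reads of the pair cannot be told apart.

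**Figure D4:**
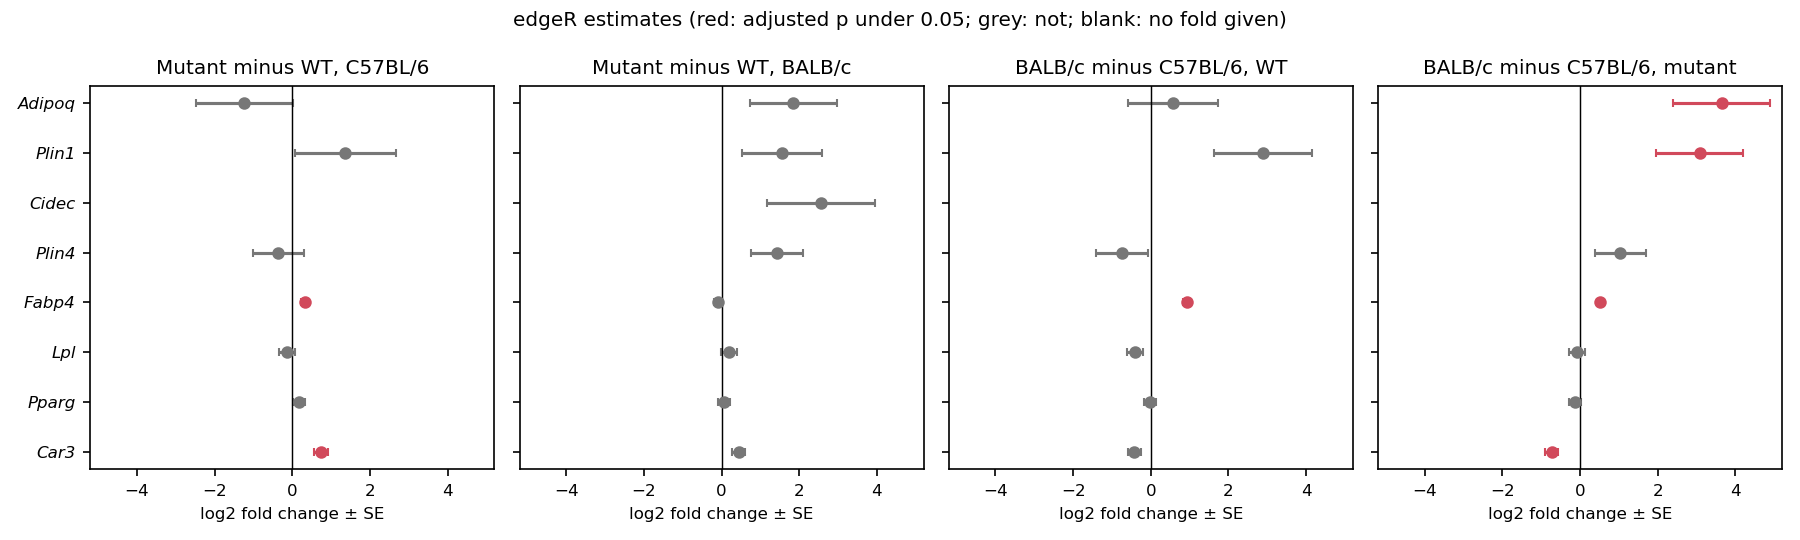
Estimated log2 fold changes (points) with standard errors (bars) of the 8 tested members in the 4 comparisons of 2 groups; red points have an adjusted p under 0.05, and Cidec is blank where no fold is given. For the mutation on BALB/c the standard errors are 1.13, 1.04 and 1.39 for Adipoq, Plin1 and Cidec and 0.09 to 0.20 for Fabp4, Lpl, Pparg and Car3.

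As a set, the members did not move one way. For the mutation on BALB/c the median log2 difference of the 8 tested members was 0.93, and 0.44 without Cidec. In the other comparisons Cidec has no usable fold, and over the other 7 members the median was 0.18 for the mutation on C57BL/6, -0.02 for the strain in wild types, 0.52 in mutants and 0.19 for the interaction. With the fitted Cidec values these 4 medians were 0.25, 0.27, 0.78 and 0.04. Over all tested genes the median was 0 for the mutation on BALB/c and -0.0040, -0.0013, -0.0041 and 0.0074 for these 4. Of the called members in mutants, Fabp4, Adipoq and Plin1 were higher in BALB/c and Car3 was lower.

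The rest of the fat programme was read from 7 lists, which hold 70 tested genes outside the members. Of the 70, 27.1% were called for the mutation on C57BL/6 (23.9% of all genes), 52.9% between wild types (48.5%), 37.1% between mutants (36.9%) and 18.6% for the interaction (10%). The first 3 shares are near those of all genes, so the counts of called genes below describe the lists and set none of them apart. On C57BL/6 the mutation raised 3 of 14 adipogenic regulators and lowered 3. Cebpb, an early C/EBP factor, rose by log2 0.51 (adjusted p = 0.00847), from 21.9 to 27.6 CPM in wild type to 34.7 to 38 CPM in mutant libraries. Rxra, the partner of PPARG, rose by 0.31 (adjusted p = 0.0168). Ebf1 fell by 0.45 (adjusted p = 0.0242) and Ebf2 fell by 2.09 (adjusted p = 0.0197). Both are early B cell factors known from preadipocytes and from olfactory tissue. Ebf2 was at 54.5, 28.3 and 30.8 CPM in C57BL/6 wild type, 18.3, 3.69 and 4.47 in C57BL/6 mutant and 1.52 to 6.84 in BALB/c libraries. Its highest mutant library, replicate 4, was the mutant library with nasal epithelium markers at 190.8 CPM, and the part of nasal tissue was not tested. With total counts neither Cebpb (adjusted p = 0.0867) nor Rxra (adjusted p = 0.115) passed. With only the 2 groups compared, Rxra (adjusted p = 0.0911), Ebf2 (0.0812) and Ebf1 (0.0544) did not pass, and Ebf2 did not with robust fitting (0.0517). Ebf1 and Ebf2 were also lost without C57BL/6 wild type replicate 1 (0.103 and 0.0741) or C57BL/6 mutant replicates 5 (0.0944 and 0.0606) or 6 (0.0710 and 0.0761), and Rxra without replicate 6 (0.0709). On BALB/c 0 of the 70 list genes were called by edgeR, with 11 at an unadjusted p under 0.05, and DESeq2 called 3 (Gpam, Acsl1 and Prdm16).

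Of 20 genes of lipid uptake and synthesis, 1 was higher and 4 were lower in C57BL/6 mutants, a share near the 23.9% of all genes. Elovl6, a fatty acid elongase, fell by 0.62 (adjusted p = 0.00206), the insulin-responsive glucose transporter gene Slc2a4 fell by 0.73 (adjusted p = 0.0114) and malic enzyme, Me1, fell by 0.37 (adjusted p = 0.0157). Gpihbp1, which anchors lipoprotein lipase on capillary endothelium, rose by 0.47 (adjusted p = 0.0102), from 12.1 to 15.6 CPM in wild type to 16.7 to 21.3 CPM in mutant libraries. Of 6 lipolysis genes tested, Abhd5 rose by 0.26 (adjusted p = 0.0429) and G0s2, an inhibitor of the lipase ATGL, fell by 1.19 (adjusted p = 0.00764). G0s2 stood at 8.78, 5.48 and 4.72 CPM in C57BL/6 wild type and 3.52, 1.94 and 2.86 CPM in mutant libraries, while the nasal epithelium sum was 776.9, 471.8 and 395.6 CPM and 190.8, 5.87 and 7.49 CPM. Elovl6, at 46.1, 38.9 and 37.5 CPM in wild type and 26.9, 29.1 and 23.8 CPM in mutants, was likewise higher in the wild type libraries, and the part of nasal tissue was not tested. Of 9 droplet and caveola genes 2 rose, Plin2 by 0.28 (adjusted p = 0.00561) and Bscl2 (seipin) by 0.32 (adjusted p = 0.0309). Of 3 adipokine genes tested, Rbp4 fell by 0.62 (adjusted p = 0.00123), and of 11 brown fat genes Bmp8b fell by 1.59 (adjusted p = 0.0296). Of 9 progenitor genes, the platelet-derived growth factor receptor genes Pdgfra and Pdgfrb rose by 0.58 and 0.32 (adjusted p = 0.00126 and 0.00309). The median log2 difference of each list in this comparison lay between -0.77 (brown fat programme) and 0.13 (lipolysis), against -0.0040 for all genes. The small rises depended on the scaling: with total counts Abhd5 (log2 0.06), Plin2 (0.09), Bscl2 (0.13) and Pdgfrb (0.13) no longer passed. With only the 2 groups compared, Gpihbp1, Slc2a4, Me1, G0s2, Rbp4, Bmp8b, Abhd5 and Bscl2 did not pass, with adjusted p of 0.0593 to 0.123. Of the 12 omissions of a library, Abhd5 passed in 5, lost without replicates 1, 2, 5, 6, 13, 14 or 17 (adjusted p of 0.0579 to 0.164). Bmp8b passed in 8, lost without replicates 1, 3, 5 or 6 (0.0596 to 0.113), Bscl2 in 9, lost without 1, 5 or 6 (0.0630 to 0.104), and Me1 in 11, lost without 6 (0.0686). Osteoblast markers rose too in these mutants, 7 of 9, while erythroid markers fell, 7 of 7, and the part of cell makeup in these differences was not tested.

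Between strains, 2 of 9 progenitor genes were higher and 1 lower in BALB/c wild type, and 3 higher and 2 lower in BALB/c mutants, beside 48.5% and 36.9% of all genes called. Dlk1 (Pref-1, a preadipocyte surface protein) stood at 35.0 to 74.4 CPM in C57BL/6 wild type and 81.6 to 128 CPM in BALB/c wild type, a difference of log2 1.1 (adjusted p = 0.0187, and 0.0523 with robust fitting). It stood at 30.7 to 35.7 and 73.5 to 190 CPM in the mutants, a difference of 1.92 (adjusted p = 0.00119). Pi16, a marker of adventitial fibroblasts that includes fat progenitors, was higher by 1.16 between wild types (adjusted p = 0.0411, and 0.0692 to 0.0800 with total counts, limma-voom or robust fitting) and by 2.70 between mutants (adjusted p = 0.000650), and Dpp4 by 1.48 between mutants (adjusted p = 0.00335). Pi16 was highest in BALB/c mutant replicate 16 (24.7 CPM), as were Dlk1 (190 CPM) and Dpp4 (7.13 CPM), the library that led in Adipoq and in muscle markers (489.3 CPM). Dlk1 was also highest within C57BL/6 wild type in the library with the most muscle RNA, replicate 2 (74.4 CPM, against 36.3 and 35.0), and the part of muscle in these differences was not tested. Each of these 3 calls among mutants was kept in all 12 omissions of a library. Between wild types, the Dlk1 call was lost without C57BL/6 wild type replicates 1 or 3 or BALB/c wild type replicate 14 (adjusted p of 0.0647 to 0.0684). The Pi16 call was lost without these or BALB/c wild type replicate 15 (0.0555 to 0.138). Pdgfrb was lower in BALB/c mutants (log2 -0.35, adjusted p = 0.000620).

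Among regulators, 7 of 14 were higher and 4 lower in BALB/c wild type, and 4 higher and 2 lower in BALB/c mutants, where 48.5% and 36.9% of all genes were called, as for the counts that follow. Cebpd was higher by 1.54 and 1.11 (adjusted p = 1.53e-05 and 0.000133). Ebf1 differed by -1.35 and -0.57 (adjusted p = 1.79e-05 and 0.00446), and Cebpa was higher by 0.56 among mutants (adjusted p = 0.00640). Between wild types Cebpb was higher by 0.99 (adjusted p = 4.34e-05) and Ebf2 differed by -3.79 (adjusted p = 0.000520). Rbp4, which encodes a retinol carrier, had 3.59 to 4.00 CPM in C57BL/6 wild type and 23.4 to 24.0 CPM in BALB/c wild type (log2 2.65, adjusted p = 3.37e-09), and 2.26 to 2.67 against 18.8 to 20.7 CPM in mutants (log2 3.01, adjusted p = 1.75e-09). Of 20 uptake and synthesis genes, 4 were higher and 7 lower in BALB/c wild type, among the latter Elovl6 (-0.85), Acaca (-0.59), Acly (-0.44) and Gpam (-1.0). In BALB/c mutants 5 were higher and 2 lower. Me1 (log2 0.76, adjusted p = 8.23e-05) and Slc2a4 (1.25, adjusted p = 0.000177) were among the higher genes. Acaca was among the lower (-0.33, adjusted p = 0.00330, and 0.0804 with total counts). Acsl1, a fatty acyl-CoA synthetase, was at 22.2 to 23.9 CPM in C57BL/6 mutant and 29.5 to 43.9 CPM in BALB/c mutant libraries (log2 0.65, adjusted p = 0.00197). Acsl1 was highest in replicate 16, the library with the most muscle RNA, and the part of muscle was not tested. Of the droplet and caveola genes, 5 of 9 were higher and 1 lower in BALB/c wild type, with Ptrf (cavin 1) higher by 0.83 (adjusted p = 0.000173) and Cidea lower (adjusted p = 0.00359), with 70, 38 and 38 counts in C57BL/6 wild type and 10, 4 and 6 counts, about the floor, in BALB/c wild type. Cidea was also highest within both C57BL/6 groups in the library with the most nasal epithelium RNA. In mutants 2 were higher and 1 lower. Lipolysis genes numbered 1 lower of 6 in wild types (Pde3b, -0.56, adjusted p = 0.000757) and 1 higher and 1 lower in mutants. Of 11 brown fat genes, 2 were higher and 3 lower in BALB/c wild type and 2 higher in mutants. Between wild types Prdm16 was lower by log2 -0.82 (adjusted p = 0.00196), and Cidea and Bmp8b were also lower. Fabp3 was higher there by 0.41 (adjusted p = 0.0246, and 0.0508 with total counts). Zic1 was higher by 1.57 between wild types and 0.67 between mutants (adjusted p = 0.000347 and 0.0415). The Zic1 call among mutants was lost with robust fitting (adjusted p = 0.0701) and in 7 of 12 omissions, without replicates 2, 4, 5, 13, 15, 17 or 18 (0.0506 to 0.129).

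**Figure D5:**
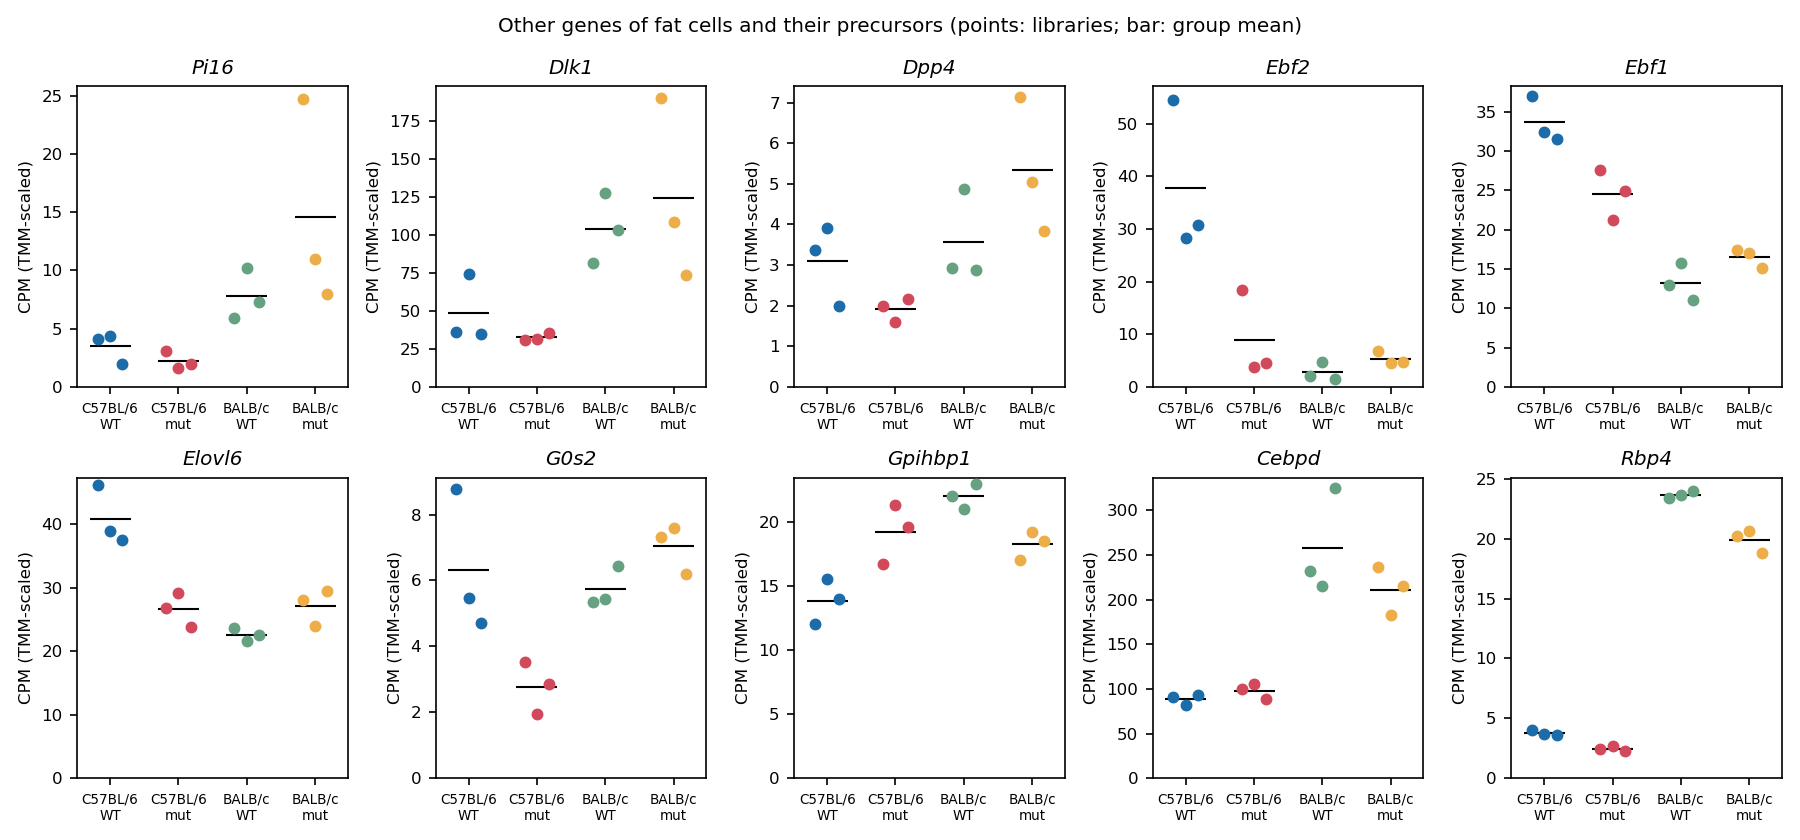
TMM-scaled CPM of 10 other genes of fat cells and their precursors in the 12 libraries (points; bars are group means of 3; axes linear from 0), picked for display after their values were seen. Dlk1, Cebpd and Rbp4 are higher in BALB/c, Rbp4 at 18.8 to 24.0 against 2.26 to 4.00 CPM, and Ebf2 is highest in C57BL/6 wild type at 28.3 to 54.5 CPM.

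Across the 12 libraries, which share depth differences, flow cells and group membership, likeness was measured as Pearson's r of log2 CPM and is given as a description. Plin1 and Cidec were the most alike members, with r = 0.960 and Spearman's rho = 0.888, and r = 0.921 without the 2 libraries farthest from the Plin1 median. Adipoq had r = 0.857 with Cidec (rho = 0.769, r = 0.769 without its 2 farthest libraries) and 0.801 with Plin1 (rho = 0.664, r = 0.650 without them). Fabp4 had r = 0.699 with Plin1 (rho = 0.804, r = 0.793 without the 2 libraries farthest from the Fabp4 median). With Cidec, Fabp4 had r = 0.591 (rho = 0.631, r = 0.795 without the same 2). Within BALB/c the Adipoq and Plin1 levels had r = 0.997 over 6 libraries, and within C57BL/6 r = 0.232, where 5 of 6 libraries held only 1 to 4 read pairs of Plin1. Adipoq had r = 0.004 with Pparg (rho = 0.021) and -0.143 with Car3 (rho = -0.140). Once group means were removed, Plin1 and Car3 had r = 0.872 (rho = 0.790, r = 0.798 without the 2 farthest libraries), against 0.001 (rho = -0.182) over the levels themselves. Outside the members, among 13878 genes with a mean of at least 1 CPM, the 10 most like Adipoq had r of 0.807 to 0.862, led by Asap3, Gon4l and Stradb. Deviations from group means gave Stradb (0.922), Cage1 (0.903) and Prepl (0.887) as the nearest. Car3 was most like Ttc39b (0.946) and Secisbp2l (0.933), and by deviations Tmem17 (0.947). Fabp4 was most like Ephb4 (0.984), Kank3 (0.982) and Clec16a (0.980). Its 5 nearest by deviations were Armcx5 (0.910), Pabpc1l (0.907), Nfatc2 (0.904), the endothelial marker Emcn (0.900) and Cd151 (0.898).

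In the authors' deposited table, whose strain folds are C57BL/6 over BALB/c, 4 members passed a q-value of 0.05 between mutants: Plin1 (log2 -1.13, q = 1.37e-05), Fabp4 (-0.50, q = 0.000284), Adipoq (-0.76, q = 0.000565) and Car3 (0.70, q = 0.000222). Between wild types the authors' deposited table passes Fabp4 (-0.91, q = 3.36e-12), Car3 (0.44, q = 0.0223), Plin1 (-0.58, q = 0.0302) and Lpl (0.41, q = 0.0402). For the mutation on C57BL/6 the authors' deposited table gives Car3 0.69 with q = 0.000546 and Fabp4 0.29 with q = 0.0620, and on BALB/c its smallest member q was 0.0976, for Plin1. In the authors' deposited table Fabp4 on C57BL/6 does not pass while edgeR called it, and Plin1, Car3 and Lpl between wild types pass while edgeR did not call them.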

How the data were processed

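The authors deposited raw gene counts, per the file headers, with an RPKM value beside each count: the count scaled to coding length and to a library total of which gene counts were 75.6% to 88.0%. The submitters' processing notes name bcl2fastq, TopHat2 2.0.6, HTSeq, DESeq2 and mm10; the strand setting is not given in the sources used here. The authors also deposited a table of log2 fold changes with p-values and q-values, per the file headers, used only where named. Columns of no sample numbered 0. Of the 23358 rows, 69 carry 1 of 26 repeated identifiers, none of a member.

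Counts were tested with edgeR 4.0.16 (R 4.3.3): filterByExpr (minimum count 10, minimum total 15; 16190 genes), TMM, 1 quasi-likelihood model with 4 group means over 12 samples, and Benjamini-Hochberg adjustment over all genes tested; called means an adjusted p under 0.05. The 5 contrasts were genotype in each strain, strain in each genotype and their interaction. The standard error is the one implied by the F statistic. Likeness used log2 CPM with a prior count of 2. The test was checked on simulated counts. Libraries of a group differed by more than sampling noise in every pair.

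The members and lists were chosen with earlier results of these data known. All members are named. From each list at most 4 genes per comparison were eligible to be named, those with the smallest adjusted p among called genes, genes with non-overlapping groups first. Not every eligible gene is given in the text. Of 196 listed genes 194 were found, 4 by an older symbol. Alternatives were RLE size factors, total-count scaling, 2 other low-count filters, DESeq2 1.42.0, limma-voom (limma 3.58.1), robust fitting, only the 2 groups compared, and leaving out each library.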

Additional observations from a re-analysis of the deposited data

Results flagged for a closer look

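The list genes below were flagged by the interaction term, and by the same term 0 of 8 tested members were called. Groups of 3 were not screened for outlying samples. Of the 70 tested genes of the 7 fat lists outside the members, 13 (18.6%, beside 10% of all genes) had effects of the mutation that differed between the strains by the interaction term of the edgeR model (effect on BALB/c minus effect on C57BL/6, adjusted over all genes, 3 samples a group). The naming rule takes 12 of them and leaves out Gpam. Of the regulators, the difference was log2 -0.78 for Cebpb (adjusted p = 0.0136), 0.77 for Ebf1 (adjusted p = 0.0254), 3.05 for Ebf2 (adjusted p = 0.0390) and -0.40 for Rxra (adjusted p = 0.0445). Of the uptake and synthesis genes, it was 0.88 for Elovl6 (adjusted p = 0.00552), -0.74 for Gpihbp1 (adjusted p = 0.0144), 0.70 for Acsl1 (adjusted p = 0.0345) and 0.92 for Slc2a4 (adjusted p = 0.0346). It was 1.48 for G0s2 (adjusted p = 0.0266), -0.33 for Plin2 (adjusted p = 0.0293), -0.35 for Pdgfrb (adjusted p = 0.0224) and -0.51 for Pdgfra (adjusted p = 0.0261). Cebpb, Elovl6 and Gpihbp1 passed in all 12 fits that leave out 1 library, and the other 9 in 3 to 8 of them. With total counts, Cebpb (log2 -0.54), Rxra (-0.17), Plin2 (-0.10), Pdgfrb (-0.13) and Pdgfra (-0.28) no longer passed. The fit without the low-count filter lost Rxra (adjusted p = 0.0564), and robust fitting lost Ebf2 (adjusted p = 0.0820). The nasal epithelium sum was 395.6 to 776.9 CPM in C57BL/6 wild type and 190.8 CPM in C57BL/6 mutant replicate 4, and at most 8.63 CPM elsewhere. Ebf1, Ebf2, Elovl6 and G0s2, which fell with the mutation on C57BL/6, were each highest in wild type replicate 1, the library with the largest nasal sum. Slc2a4, which also fell, was highest in wild type replicate 3 (6.97 CPM, against 6.91 CPM in replicate 1). The part of nasal tissue in these interactions was not tested.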

How the results depend on the processing

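No paired analysis was possible because the groups share no replicate number. Members called numbered 2 for the mutation on C57BL/6, and 1 with total counts (1 to 2 leaving out 1 library, 1 without replicate 1, 5 or 6). Between wild types they numbered 1, and 2 with total counts, the filter of CPM above 1, DESeq2, limma-voom or only the 2 groups compared (1 to 3 leaving out 1 library, 3 without replicate 14, 2 without 4 or 16). Between mutants they numbered 4, and 2 with limma-voom or robust fitting (2 to 5 leaving out 1 library, 2 without replicate 3, 4, 5, 16 or 17, and 5, Cidec added, without 18). For the interaction they numbered 0, and 1 with DESeq2 (0 to 1 leaving out 1 library, 1 without replicate 4 or 15).

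Scaling to total counts reversed 3 estimates, none of them called: Lpl between mutants (log2 0.0274), Pparg on C57BL/6 (-0.0289) and the Pparg interaction (0.14). The cause was not tested. Leaving out 1 library changed the sign of further estimates, none called, which ranged from -1.22 to 1.11 for Adipoq between wild types, -0.187 to 0.0088 for Fabp4 on BALB/c, -0.276 to 0.0537 for Lpl on C57BL/6 and -0.22 to 0.0278 for Lpl between mutants. They ranged from -0.47 to 2.07 for Plin1 on C57BL/6, -0.89 to 2.02 for the Plin1 interaction and -0.0428 to 1.47 for Plin4 between mutants. For Pparg they ranged from -0.0423 to 0.25 on BALB/c, -0.251 to 0.0764 for the interaction and -0.19 to 0.11 between wild types. Of the calls of members lost, Adipoq between mutants had adjusted p of 0.122 with limma-voom and 0.0727 with robust fitting, and Plin1 had 0.110, 0.0810, 0.0504 with RLE size factors and 0.0511 with only the 2 groups compared. For the named list genes, 523 estimates under other settings gave 37 lost calls and 0 changes of sign, and 804 estimates leaving out 1 library gave 116 lost calls and 0 changes of sign. With a prior count of 0.5, 8 of the 10 genes most like Adipoq were the same.

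Over all genes, the mutation on C57BL/6 called 3867 genes, and 1458 with only its 2 groups (1724 to 4833 leaving out 1 library). On BALB/c it called 22, and 4 to 318 under other settings (0 to 95 leaving out 1 library). The interaction called 1626, and 2693 with DESeq2 (624 to 3129 leaving out 1 library). With total counts the split of higher to lower calls was 616 to 4064 in place of 1835 to 2032 for the mutation on C57BL/6, 2221 to 4909 in place of 3698 to 4149 between wild types, 4039 to 1915 in place of 2914 to 3054 between mutants and 1672 to 175 in place of 884 to 742 for the interaction.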
